A study of Drosophila melanogaster with 15 samples.

Results

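RNA-seq libraries of Kc167 cells after RNAi against DOM-A were compared directly with libraries of the same cells after RNAi against H2A.V. The comparison uses 6 of the 15 libraries of the series, 3 biological replicates of DOM-A RNAi and 3 of H2A.V RNAi, chosen by their labels, and 3 CTRL libraries serve as the baseline for each knock-down. Kc167 is an embryonic *Drosophila melanogaster* cell line with features of blood cells. The cells were treated for 6 days with dsRNA against the DOM-A isoform of *domino*, against *His2Av*, or, for CTRL, against GST in replicates 1 and 3 and GFP in replicate 2, and these sequences cannot be told apart from the replicates. Before extraction, *Drosophila virilis* cells (line 79f7Dv3) were added to every sample as a spike-in, 1 for every 2 Kc167 cells, and poly(A) RNA was sequenced from directional libraries. The other 6 libraries, TIP60 RNAi and DOM-B RNAi, enter the fit and are compared once with each other.

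DOM-A and DOM-B are splice isoforms of one SWI2/SNF2-type ATPase. DOM-A belongs to a complex related to yeast NuA4 that holds the acetyltransferase TIP60 and acetylates histone H4, whereas DOM-B belongs to a complex related to yeast SWR1 that places the histone variant H2A.V in chromatin. H2A.V is the only H2A variant of *Drosophila* and joins the roles that H2A.Z and H2A.X have in other animals, at promoters, in heterochromatin and in the response to DNA breaks. The direct comparison asks which genes depend on the ATPase of the acetyltransferase complex and which depend on the variant histone itself.

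The dsRNA against *His2Av* was made from either of 2 fragments of the gene, of 148 and 207 bp. *His2Av* lies on chromosome arm 3R (26866929 to 26869220, plus strand, BDGP6). The gene-specific parts of the primers are shown because they set which part of the transcript was targeted. The labels do not say which fragment each replicate received.
H2Av_RNAi_f1: cgaaaccgaattccgtagaa
H2Av_RNAi_r1: caatcgatttttctgctgcc
H2Av_RNAi_f2: gaagggcaacgtcattctgt
H2Av_RNAi_r2: gtgagtgttggggagatgct
*His2Av* had 7451, 7189 and 7251 normalized counts in the DOM-A libraries, 221, 1930.3 and 273 in the H2A.V libraries and 11304, 12183 and 10303 in the CTRL libraries (replicates 1, 2 and 3; a normalized count is the read count divided by the size factor of the *D. virilis* spike-in). The H2A.V libraries thus held 1.96, 17.1 and 2.43% of the CTRL mean, and replicate 2 retained the most. The log2 fold-change of DOM-A over H2A.V was 3.49 ± 0.55 (SE; edgeR quasi-likelihood test, adjusted p = 0.00021), and DOM-A RNAi itself left *His2Av* at -0.61 relative to CTRL (adjusted p = 0.37).
The counts for *dom* pool the isoforms and do not check the DOM-A knock-down. They were 5988, 5307 and 5441 in DOM-A, 4522, 3562 and 5907 in H2A.V and 4378, 4193 and 5103 in CTRL libraries, with a log2 fold-change of DOM-A over H2A.V of 0.28 ± 0.13 (edgeR, adjusted p = 0.11) that was -0.01 when libraries were scaled by total *D. virilis* counts. *Tip60*, the acetyltransferase gene, had 279, 389 and 292 normalized counts in DOM-A and 164, 186 and 165 in H2A.V libraries, against 259, 242 and 275 in CTRL. It was higher in DOM-A than in H2A.V by 0.89 ± 0.15 (edgeR, adjusted p = 0.00029), a call that was lost with total *D. virilis* counts. Against CTRL, *Tip60* was not called in DOM-A (0.30, edgeR, adjusted p = 0.13) and was lower in H2A.V (-0.59, adjusted p = 0.0096).

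Reads counted on *D. melanogaster* genes numbered 8662976 to 14679536 per library, and those on *D. virilis* genes 1766397 to 3037203. The ratio of the *D. melanogaster* to the *D. virilis* size factor was 1.05, 1.04 and 0.965 in DOM-A, 0.848, 0.803 and 0.935 in H2A.V and 1.07, 1.06 and 1.04 in CTRL libraries. The DOM-A libraries were thus all above the H2A.V libraries, by a mean of 0.24 on the log2 scale (exact two-sided permutation test, p = 0.1, the smallest that 3 against 3 libraries allow), whereas total counts of both species gave 0.03 (p = 0.6). In bulk samples, less RNA per cell and fewer cells at extraction cannot be told apart. Among blood cell markers, the plasmatocyte gene *Hml* was at 8080.6 to 46430.1 normalized counts in the 9 libraries, whereas the crystal cell genes *PPO1* and *PPO2* were at or near 0 in the H2A.V and CTRL libraries. Of the fat body genes, *Lsp2* and *Fbp1* were at or near 0, and *Lsp1beta* was at 11.2 to 25.6 normalized counts in DOM-A, 23.7 to 46.0 in H2A.V and 65.7 to 91.1 in CTRL libraries. The 10 muscle markers summed to 758 to 1009 normalized counts in DOM-A, 759 to 880.0 in H2A.V and 568 to 720.3 in CTRL libraries.

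Of 11424 genes tested, 3375 (29.5%) differed between DOM-A and H2A.V RNAi at an adjusted p under 0.01 (edgeR quasi-likelihood test with the replicate number as block). Most of these were higher in DOM-A: 2500 genes (21.9%) were higher in DOM-A and 875 (7.66%) were lower, and the median log2 fold-change over all genes was 0.29. This split depended on the scaling. With size factors from the *D. melanogaster* counts the numbers were 1595 higher and 1594 lower (TMM) or 1670 and 1566 (median of ratios), and with total *D. virilis* counts 1253 and 1534. The median over all genes shifted by -0.25, -0.23 and -0.29 under these 3 scalings. Differences smaller than about this shift have a direction that rests on the choice of scaling, and list medians below are given beside the all-gene median of 0.29. Counts of list members are likewise to be read beside the all-gene shares of 21.9% higher and 7.66% lower. All lists were chosen with earlier results of these data known and are not independent evidence of a direction. Changes of more than 2-fold were found for 1245 genes that were higher and 405 that were lower. Leaving out H2A.V replicate 1 gave 1581 higher genes.

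**Figure D1:**
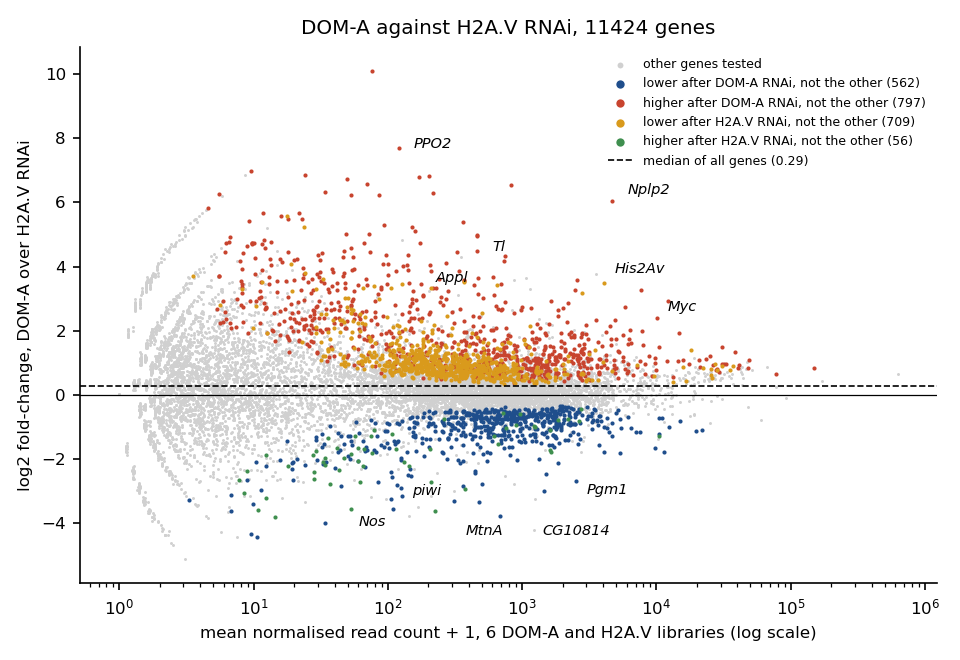
Log2 fold-change of DOM-A over H2A.V RNAi (vertical axis) against the mean normalized count (horizontal axis, log scale) for the 11424 genes tested. Colours mark genes that changed with one knock-down and were not called with the other. Of the genes that changed with a single knock-down, 797 higher after DOM-A RNAi and 709 lower after H2A.V RNAi lie above 0, and 562 lower after DOM-A RNAi and 56 higher after H2A.V RNAi lie below.

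Among called genes with a mean of at least 100 normalized counts over the 6 libraries and groups that do not overlap, the 10 with the largest increase in DOM-A included the blood cell gene *PPO2* and the clotting factor gene *fon*. *PPO2*, which encodes a prophenoloxidase stored by crystal cells, had 237, 159 and 315 normalized counts in DOM-A and 0, 1.44 and 1.70 in H2A.V libraries and 0, 2.12 and 1.84 in CTRL, a log2 fold-change of 7.71 ± 0.53 (edgeR, adjusted p = 5.8e-07). The groups lie far apart, although a fold-change against counts this close to 0 depends on the fitting. *CG33460* had 1848, 1778 and 1263 normalized counts in DOM-A and 10.5, 15.8 and 25.5 in H2A.V libraries (6.55 ± 0.42, adjusted p = 3.8e-07), with 10 to 25.8 in CTRL libraries. *Nplp2*, annotated as a neuropeptide-like precursor, was the most abundant of the 10, with 13137, 5622 and 9031 normalized counts in DOM-A, 99.6, 150.3 and 151 in H2A.V and 157, 276 and 213 in CTRL libraries (6.05 ± 0.46, adjusted p = 1.3e-06). For each of these genes every DOM-A library was also far above every CTRL library, whereas the lack of overlap with H2A.V was a condition for naming. Over all genes, 4995 of 11424 had DOM-A and H2A.V groups that do not overlap.

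DOM-A replicate 2 stood apart for part of these genes. The ABC transporter gene *osy* had 14.4, 925 and 62.5 normalized counts in DOM-A and 1.62, 1.44 and 2.55 in H2A.V libraries (6.79 ± 1.24, adjusted p = 0.00063), and its call was lost without H2A.V replicate 2. The clotting factor gene *fon* had 109, 661 and 118 normalized counts in DOM-A and 7.29, 2.16 and 10.2 in H2A.V libraries, and the neprilysin-like *Nepl9* 219.6, 817 and 167 normalized counts in DOM-A and 0.810, 4.31 and 4.26 in H2A.V libraries. In all 3 genes DOM-A replicate 2 was the highest library. That the lowest DOM-A library was above every H2A.V library was required by the rule for naming. *CG5246*, *CG33465*, *CG9555* and *Zasp52*, which encodes a PDZ-LIM protein of the muscle Z-disc, complete the 10 with log2 fold-changes of 6.29, 5.39, 5.10 and 4.98 (edgeR, adjusted p between 6.0e-06 and 2.2e-05). All 10 genes were also called higher in DOM-A than in CTRL, with adjusted p in H2A.V against CTRL between 0.12 and 0.99.

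At the other end, *MtnA*, which encodes the copper- and cadmium-binding metallothionein A, had 114, 129 and 44.1 normalized counts in DOM-A and 1111, 2093 and 622 in H2A.V libraries and 4073, 7279 and 801 in CTRL. The log2 fold-change of DOM-A over H2A.V was -3.78 ± 0.43 (edgeR, adjusted p = 2.1e-05), and every DOM-A library was below every other. *Nos*, the nitric oxide synthase gene, had 16.0, 12.3 and 22.1 normalized counts in DOM-A and 212, 145 and 244 in H2A.V libraries and 147, 208 and 119 in CTRL (-3.55 ± 0.33, adjusted p = 4.5e-06). The meiotic cohesion gene *sunn* (-3.34), the neuropeptide gene *Orcokinin* (-3.32) and the Methuselah-like receptor gene *mthl7* (-3.26) likewise fell after DOM-A RNAi while their H2A.V libraries were not called different from CTRL. For some of these genes H2A.V against CTRL was close to the threshold: *MtnA* -1.36, *Orcokinin* 0.51 and *mthl7* 0.58 (edgeR, adjusted p = 0.015, 0.018 and 0.018). Not being called is thus not the same as no change.

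Other genes at this end moved in opposite ways with the knock-downs. *CG34355* had 205.1, 365 and 167 normalized counts in DOM-A and 2314, 1746 and 2720.3 in H2A.V libraries and 522, 861 and 410.2 in CTRL libraries, so that it was called lower than CTRL in DOM-A (-1.28, adjusted p = 0.0046) and higher than CTRL in H2A.V (1.98, adjusted p = 0.00038). *CG43191* and *CG14787* did the same, with log2 fold-changes of DOM-A over H2A.V of -3.48 and -3.79. *CG10814* had the largest decrease, -4.22 ± 0.70 (edgeR, adjusted p = 0.00031), from 157, 99.5 and 49.7 in DOM-A and 5083, 857 and 1110.3 in H2A.V libraries, but with 896, 178 and 387 in CTRL neither knock-down was called on its own. *Cyp4p1*, a cytochrome P450 gene, had 35.3, 18.0 and 43.2 normalized counts in DOM-A and 616, 293 and 344 in H2A.V libraries and 90.0, 77.3 and 138 in CTRL and was called higher only in H2A.V against CTRL (1.95, adjusted p = 0.005; the DOM-A difference of -1.68 had an adjusted p of 0.018).

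Genes were next sorted by which knock-down moved them away from CTRL. Against CTRL, 2214 genes (19.4%) were called in DOM-A, 1024 higher and 1190 lower, and 1456 genes (12.7%) in H2A.V, 140 higher and 1316 lower, with both comparisons using the same CTRL libraries. Without the replicate block these totals were 1422 and 912. A gene was taken to depend on a single knock-down when it was called in the direct comparison, called in the same direction in that knock-down against CTRL, and not called in the other. On this definition 562 genes were lower and 797 higher after DOM-A RNAi and not called after H2A.V RNAi, and 709 genes were lower and 56 higher after H2A.V RNAi and not called after DOM-A RNAi. In a stricter version, in which the 95% interval of the other knock-down also had to lie within 1.5-fold of CTRL, 341, 220, 456 and 9 genes remained in these 4 classes. Without the block it was 181, 103, 278 and 1. A further 56 genes changed in opposite directions, 43 in the same direction to a different extent, and 1152 genes differed between the knock-downs without being called in either against CTRL.

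The size of the classes depended on the scaling, and that of the class lower after H2A.V RNAi the most. Of the 562 and 797 genes lower and higher after DOM-A RNAi, 486 and 555 were in their class under all 5 scalings tried, as were 52 of the 56 genes higher after H2A.V RNAi. Only 167 of the 709 genes lower after H2A.V RNAi were. Scaling also added genes: the class lower after DOM-A RNAi held 936 genes under total *D. virilis* scaling and 908 with TMM on *D. melanogaster* counts, and the class higher after H2A.V RNAi held 112 and 143 with the TMM and median-of-ratios factors of *D. melanogaster*. The class lower after H2A.V RNAi held 262 genes with TMM and 244 with median-of-ratios factors of *D. melanogaster* counts and, under total *D. virilis* scaling, 190. It also shrank to 282 and 360 genes without H2A.V replicate 1 or 2 and to 450, 421 and 394 without CTRL replicate 1, 2 or 3. The DOM-A lower class held 356 and 369 genes without DOM-A replicate 1 or 3. The DOM-A higher class held 491 genes without DOM-A replicate 1, 458, 531 and 503 without CTRL replicate 1, 2 or 3, and 474 without the replicate block. The H2A.V higher class held 22 and 37 genes without H2A.V replicate 1 or 2, 28, 28 and 25 without CTRL replicate 1, 2 or 3, and 25 without the block.

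**Figure D2:**
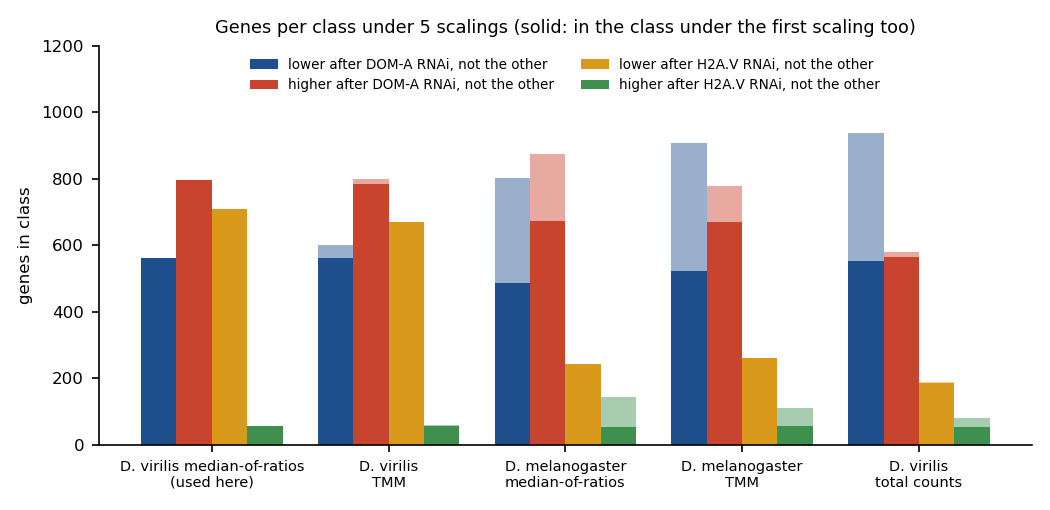
Number of genes in each class (vertical axis) under the 5 scalings tried (bars), with the solid part for genes that are also in the class under *D. virilis* median-of-ratios factors. The class lower after H2A.V RNAi holds 709 genes with these factors and between 190 and 262 with the *D. melanogaster* factors or total *D. virilis* counts.

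Gene length and chromosome, which the definition of the classes did not use, are given as descriptions. Genes higher after DOM-A RNAi had a median exonic length of 2864 nt against 1857 nt over all genes, and genes lower after H2A.V RNAi were shorter, with a median of 1561 nt. The median was 2167.5 nt in the class lower after DOM-A RNAi and 1712 nt in that higher after H2A.V RNAi. Of the 93 genes tested on chromosome 4, 16 (17.2%) were in the class higher after DOM-A RNAi, which held 6.98% of all genes tested. For the class lower after H2A.V RNAi it was 1 gene (1.08%), against 6.21% of all genes tested. The class lower after DOM-A RNAi likewise had 1 (1.08%), against 4.92% of all genes tested. The class higher after H2A.V RNAi had 0, against 0.49%.

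In the strict version of the class lower after DOM-A RNAi, the 8 named genes were those with the largest decrease that met the rule for naming. *Pgm1* (phosphoglucomutase, which links glycogen to glycolysis) had 715, 693 and 439.6 normalized counts in DOM-A and 4046, 7498 and 1808 in H2A.V libraries and 4506, 4850.4 and 2351 in CTRL, a log2 fold-change of DOM-A over H2A.V of -2.69 ± 0.21 (edgeR, adjusted p = 1.5e-06). Every DOM-A library was below every other, while H2A.V and CTRL overlapped. *GstE9*, a glutathione S-transferase gene, had 88.1, 95.8 and 69.0 normalized counts in DOM-A and 565, 973 and 361 in H2A.V libraries and 606, 721 and 529 in CTRL (-2.84 ± 0.26, adjusted p = 4.5e-06). *Tspo*, which encodes a protein of the outer mitochondrial membrane, had 2026, 1937 and 1425 normalized counts in DOM-A, 5604, 8938 and 4598 in H2A.V and 6974, 6557 and 5356 in CTRL libraries (-1.79 ± 0.25, adjusted p = 9.0e-05). The synaptonemal complex gene *cona* had 694, 756 and 624 normalized counts in DOM-A and 2875, 2619.7 and 3445 in H2A.V libraries and 3231, 3777 and 2933 in CTRL (-2.11 ± 0.17, adjusted p = 1.8e-06), and *ndl*, which encodes the protease Nudel of the egg's outer layers, had the largest decrease of the set (-3.16 ± 0.24, adjusted p = 1.3e-06). *CG15093*, *CG1888* and *CG11151* completed the 8 with -1.87, -1.81 and -1.79.

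In the strict version of the class higher after DOM-A RNAi, *Idgf6*, an imaginal disc growth factor gene, had 12357, 13578 and 11242 normalized counts in DOM-A and 2802, 2817 and 3738 in H2A.V libraries and 3082, 3734 and 3082 in CTRL (1.99 ± 0.20, adjusted p = 8.1e-06). *Ance*, an angiotensin-converting enzyme homologue, had 8573, 8896 and 7119 normalized counts in DOM-A, 1575, 1299 and 2148 in H2A.V and 1606, 1541 and 1889 in CTRL libraries (2.33 ± 0.27, adjusted p = 2.2e-05). For both genes the 3 DOM-A libraries lay close together and the H2A.V and CTRL libraries overlapped. *sra*, a regulator of calcineurin, had 2630.0, 1667 and 2773 normalized counts in DOM-A, 621, 475 and 857 in H2A.V and 588, 592 and 750.3 in CTRL libraries (1.86 ± 0.20, adjusted p = 1.4e-05). *M7BP*, which encodes a myosin-binding protein, rose by 2.46, the spindle protein gene *Wdr62* by 1.80, the long non-coding RNA gene *lncRNA:CR45973* by 1.81, and *CG33784* and *CG18063* by 1.90 and 1.76 (edgeR, adjusted p between 3.2e-06 and 3.0e-05).

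The strict version of the class lower after H2A.V RNAi was led by *CG5466*, with 389, 599 and 395 normalized counts in DOM-A and 69.7, 98.5 and 80.0 in H2A.V libraries and 433, 411 and 394 in CTRL libraries (2.47 ± 0.17, adjusted p = 5.8e-07). DOM-A and CTRL overlapped and all H2A.V libraries were below both. The same order was seen for the lysosomal enzyme genes *Ppt1* (palmitoyl-protein thioesterase) and *Hexo1* (hexosaminidase). *Ppt1* had 713, 816 and 608 normalized counts in DOM-A and 184, 199.9 and 222 in H2A.V libraries and 681, 571 and 687 in CTRL (1.82 ± 0.15, adjusted p = 1.7e-06), and *Hexo1* had 242, 491 and 261 normalized counts in DOM-A, 81.8, 140.2 and 46.8 in H2A.V and 246, 518 and 223 in CTRL libraries (1.92 ± 0.23, adjusted p = 2.7e-05). *Rph*, encoding rabphilin, a protein of synaptic vesicle traffic, had 393, 569.8 and 414 normalized counts in DOM-A and 97.2, 132 and 146 in H2A.V libraries and 476, 598 and 422 in CTRL (1.87 ± 0.16, adjusted p = 3.2e-06). The receptor gene *mthl10*, the alcohol dehydrogenase gene *T3dh*, *CG4278* and *CG14868* had log2 fold-changes of DOM-A over H2A.V of 2.18, 2.15, 2.03 and 1.96. These 8 genes kept their call under every alternative.

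Only 9 genes were higher after H2A.V RNAi in the strict version, and 8 of them met the rule for naming. This strict class held 37 genes with TMM and 61 with median-of-ratios factors of *D. melanogaster* counts, 19 with total *D. virilis* counts, 1 without the block, 4 or 1 without DOM-A replicate 1 or 3, 2 or 6 without H2A.V replicate 1 or 2, and 1, 2 and 3 without CTRL replicate 1, 2 or 3. *Syt14*, a synaptotagmin gene, had 48.1, 80.6 and 62.5 normalized counts in DOM-A and 147, 126 and 171 in H2A.V libraries and 55.6, 77.3 and 59.0 in CTRL libraries (-1.23 ± 0.23, adjusted p = 0.00067). *Mekk1*, a stress-activated kinase kinase kinase gene, had 1679.6, 1649.6 and 1615 normalized counts in DOM-A, 2991, 2978 and 2301 in H2A.V and 2244, 1665 and 1884 in CTRL libraries (-0.74 ± 0.12, adjusted p = 0.00034). The genes of membrane traffic and the endoplasmic reticulum in this set, *BI-1* (-0.82), *p115* (-0.58) and *Grp170* (-0.44), lost their calls without the replicate block. They also lost them without single libraries: *BI-1* without DOM-A replicate 2 or 3 or any H2A.V replicate, *p115* without DOM-A replicate 1 or 3, H2A.V replicate 1 or 2, or CTRL replicate 1, and *Grp170* without DOM-A replicate 1 or 2 or H2A.V replicate 1 or 2. *CG42394* (-1.02) lost its call without H2A.V replicate 3 and *mthl14* (-0.74) without the block, and *CG7044* (-0.79) kept it.

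**Figure D3:**
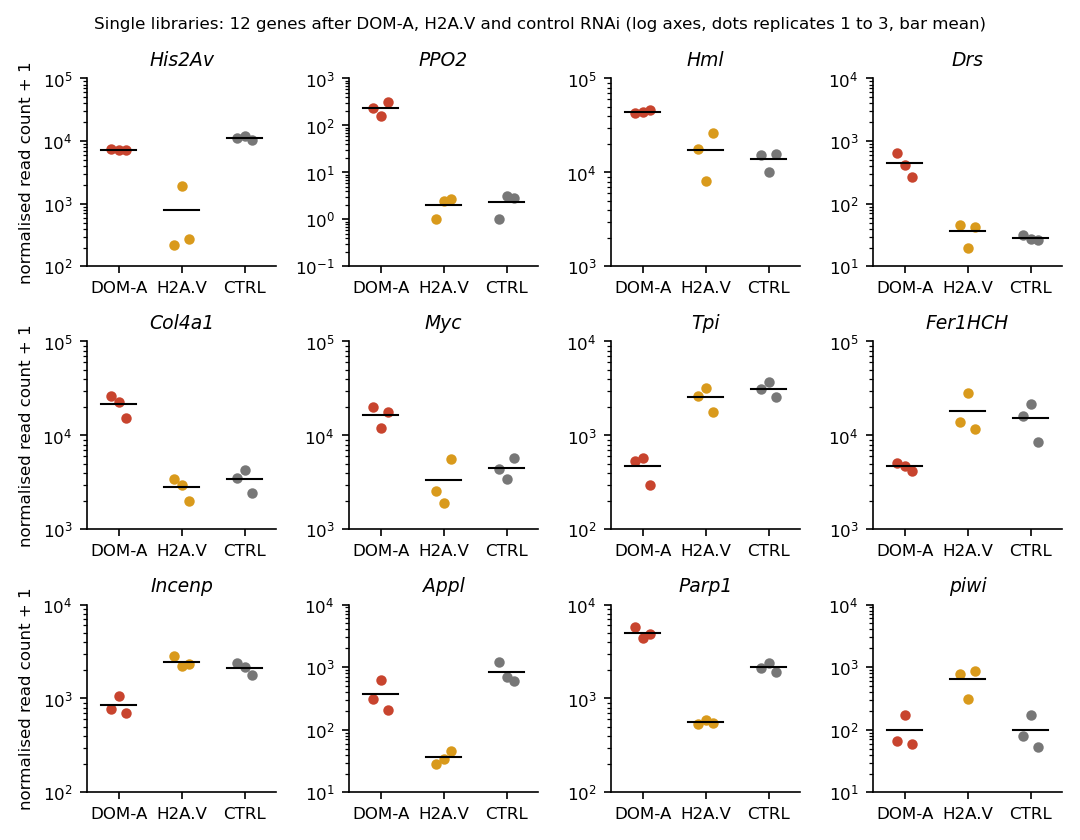
Normalized counts of 12 genes in each DOM-A, H2A.V and CTRL library (points are replicates 1 to 3, bars are group means, vertical axes are log scales of the normalized count plus 1). *PPO2*, *Hml*, *Drs*, *Col4a1* and *Myc* are high in DOM-A, *Tpi*, *Fer1HCH* and *Incenp* are low in DOM-A, *Appl* and *Parp1* are low in H2A.V and *piwi* is high in H2A.V, and *His2Av*, the targeted gene, is lowest in H2A.V.

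Blood cell genes were higher in DOM-A than in H2A.V in most of the markers tested. Of 11 plasmatocyte markers tested, 9 were higher and the other 2 were not called, with a median log2 fold-change of 1.51 (all genes: 0.29). *Hml*, which encodes hemolectin, a clotting protein of plasmatocytes, had 43312, 43766 and 46430.1 normalized counts in DOM-A and 17628, 8081 and 26092 in H2A.V libraries and 15329, 10123 and 15818 in CTRL (1.51 ± 0.26, adjusted p = 0.00046). The surface protein gene *He* (hemese) had 1556, 646 and 2559.7 normalized counts in DOM-A, 82.6, 64.0 and 280.1 in H2A.V and 191, 163 and 685 in CTRL libraries (3.58 ± 0.33, adjusted p = 4.4e-06) and was also below CTRL in H2A.V (-1.28, adjusted p = 0.0098). The phagocytic receptor gene *eater* had 859, 434 and 632 normalized counts in DOM-A, 177, 121 and 245 in H2A.V and 162, 203 and 171 in CTRL libraries (1.81 ± 0.30, adjusted p = 0.0003). In *Hml* and *eater* the H2A.V and CTRL libraries overlapped and only the DOM-A libraries stood above.

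The replicates of DOM-A RNAi differed for several of these genes. *NimC1*, another phagocytic receptor gene, had 431, 59.7 and 557 normalized counts in DOM-A and 45.4, 24.4 and 94.5 in H2A.V libraries (2.54 ± 0.45, adjusted p = 0.00052), so that DOM-A replicate 2 was below H2A.V replicate 3. The scavenger receptor gene *Sr-CI* had 240.4, 56.9 and 219 normalized counts in DOM-A and 8.10, 6.47 and 15.3 in H2A.V libraries (4.07 ± 0.56, adjusted p = 7.5e-05), and *NimB5* 1689, 411 and 2120.0 normalized counts in DOM-A and 41.3, 31.6 and 148 in H2A.V libraries (4.32 ± 0.56, adjusted p = 4.7e-05). Replicate 2 was the lowest DOM-A library in all 3 genes. Leaving out any one library left 8 or 9 plasmatocyte markers called higher. The engulfment receptor gene *drpr* and *ush*, whose product is a cofactor of GATA factors, rose by 1.43 and 0.92 (edgeR, adjusted p = 7.7e-05 and 0.00047).

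Of 6 crystal cell markers *PPO2*, *PPO1* and *peb* were higher and 3 were not called (median 1.43). The summed level of the 6 did not follow the median, with 6689.7, 3996 and 3578 normalized counts in DOM-A, 5896, 5072 and 6976 in H2A.V and 9317, 8053 and 7222 in CTRL libraries, and with a filter of at least 10 reads in every library 2 of them were tested and had a median log2 fold-change of -0.51. *PPO1*, the second crystal cell prophenoloxidase gene, had 14.4, 21.8 and 16.6 normalized counts in DOM-A, 1.62, 0.719 and 0 in H2A.V and 0 in all CTRL libraries (edgeR for DOM-A over H2A.V, adjusted p = 0.00058). *peb*, which encodes the zinc finger protein Hindsight, had 62.5, 17.1 and 87.4 normalized counts in DOM-A and 9.72, 14.4 and 27.2 in H2A.V libraries, which overlapped, and its call (edgeR, adjusted p = 0.0052) was lost under both *D. melanogaster* scalings, with total *D. virilis* counts, without the block, and without DOM-A replicate 1 or 3 or H2A.V replicate 1 or 3. Of 6 lamellocyte markers 5 were higher and 1 was not called (median 1.52). *atilla*, the lamellocyte surface antigen gene, had 149, 84.4 and 139.8 normalized counts in DOM-A and 8.91, 3.59 and 19.6 in H2A.V libraries and 2.22, 2.12 and 12.9 in CTRL (3.61 ± 0.65, adjusted p = 0.00055). The integrin gene *ItgaPS4* (3.38), the filamin gene *cher* (1.85) and the kinase gene *msn* (0.86) also rose. *PPO3*, the lamellocyte prophenoloxidase gene, differed from these: it had 386, 230.4 and 263 in DOM-A, 121, 252 and 69.0 in H2A.V and 414, 422 and 269 in CTRL libraries, and its call (1.19 ± 0.32, adjusted p = 0.0082) was lost under all other scalings, without the block, and without DOM-A replicate 1 or 3, H2A.V replicate 1 or 3, or CTRL replicate 1 or 3.

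Antimicrobial peptide genes, the outputs of the Toll and IMD pathways, were higher in DOM-A in 4 of 13 cases (all genes: 21.9%), with 9 not called. Their median of 1.98 rests on low counts, since 9 of the 16 genes listed had at most 10 normalized counts in every library and 1 passed a filter of 10 reads in every library. *Drs* (drosomycin) had 652, 409 and 271 normalized counts in DOM-A and 45.4, 18.7 and 41.7 in H2A.V libraries and 31.1, 26.5 and 25.8 in CTRL (3.61 ± 0.52, adjusted p = 0.00011), without overlap between DOM-A and the others. *AttD* (2.80), *CecC* (4.22) and *CecA1* (2.93) rose too, from counts under 30 in H2A.V libraries, and the cecropin genes are near copies for which uniquely mapped reads are uncertain. Of 22 genes of Toll and IMD signalling 9 were higher (40.9%, against 21.9% of all genes) and 13 not called (median 0.44), whereas total *D. virilis* counts gave 5 higher and 2 lower, and 5 were higher without H2A.V replicate 2. The receptor gene *Tl* had 854, 941 and 823 normalized counts in DOM-A and 39.7, 19.4 and 67.3 in H2A.V libraries and 80.0, 65.7 and 165 in CTRL (4.48 ± 0.36, adjusted p = 1.9e-06). The NF-kappaB genes *Dif* (1.43) and *dl* (1.15, lost with total *D. virilis* counts) and the inhibitor gene *cact* (1.66), itself a Toll target, rose as well (edgeR, adjusted p between 3.7e-05 and 0.0014).

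Of 10 basement membrane genes 4 were higher and 6 not called (median 0.77). *Col4a1* and *vkg*, which encode the chains of type IV collagen, are neighbouring genes that share a promoter region. *Col4a1* had 26342, 22607 and 15396 normalized counts in DOM-A and 3403, 2985 and 2021 in H2A.V libraries and 3511, 4318 and 2470.1 in CTRL (2.93 ± 0.53, adjusted p = 0.00058), and *vkg* had 15553, 16960.1 and 9462 normalized counts in DOM-A, 1715, 1307 and 1239.7 in H2A.V and 2191, 2911 and 1607 in CTRL libraries (3.26 ± 0.48, adjusted p = 0.00012). Both were several times higher in every DOM-A library than in any other. The laminin gene *LanB1* (1.16) and the multiplexin collagen gene *Mp* (2.66) were the others called, the second with DOM-A replicate 2 the highest of its group.

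Ecdysone response genes, induced by the moulting hormone to which Kc cells respond, were higher in DOM-A in 10 of 19 cases, with 9 not called (median 0.87). The nuclear receptor gene *Eip75B* had 2717, 2219 and 2449 normalized counts in DOM-A and 1093, 719.6 and 1507 in H2A.V libraries and 1589, 1328 and 1643 in CTRL libraries (1.18 ± 0.17, adjusted p = 0.0001). *Eip78C* had 797, 687 and 698 normalized counts in DOM-A, 295, 357 and 358 in H2A.V and 327, 345 and 330.0 in CTRL libraries (1.11 ± 0.17, adjusted p = 0.00021), with H2A.V and CTRL overlapping. The methionine sulfoxide reductase gene *MsrA* rose by 1.96, a call lost without the block. Without the block 5 of the 19 were higher, and with total *D. virilis* counts 5 were higher and 1 lower. Of 12 apoptosis genes 3 rose (25%, against 21.9% of all genes; median 0.76): the death genes *hid* and *rpr*, whose products block the apoptosis inhibitor Diap1, and the tumour necrosis factor gene *egr* (1.59, lost with total *D. virilis* counts, without the block, and without DOM-A replicate 2 or H2A.V replicate 1 or 2). *hid* had 280.5, 514 and 381 normalized counts in DOM-A and 27.5, 29.5 and 63.0 in H2A.V libraries and 37.8, 50.8 and 57.1 in CTRL (3.35 ± 0.29, adjusted p = 3.2e-06). *rpr* had 144, 53.1 and 248 normalized counts in DOM-A and 17.8, 15.1 and 100.5 in H2A.V libraries (1.93 ± 0.33, adjusted p = 0.00041), which overlapped, and its call was lost without the block, where 1 of the 12 genes was higher.

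*Myc*, the transcription factor gene that drives ribosome production, had 20084, 11942 and 17908 normalized counts in DOM-A and 2569, 1909 and 5678 in H2A.V libraries and 4394, 3475 and 5774 in CTRL (2.41 ± 0.21, adjusted p = 2.5e-06). Every DOM-A library was above every other. Of 89 cytosolic ribosomal protein genes 67 were higher and 1 lower, with a median of 0.66. Against CTRL, 16 were higher in DOM-A and 18 lower in H2A.V. The number depended on the scaling: 34 were higher with TMM on *D. melanogaster* counts (median 0.41) and 40 with total *D. virilis* counts (median 0.37). Leaving out H2A.V replicate 1 gave 44 higher genes and fitting only the DOM-A and H2A.V libraries 18. The gene that was lower is *RpS19b*, a paralog of *RpS19a* used mostly in the germline, with 239, 209.5 and 208 normalized counts in DOM-A and 1284, 1193 and 1323 in H2A.V libraries and 600.0, 762 and 458 in CTRL (-2.54 ± 0.17, adjusted p = 5.8e-07). As a paralog its counts hold only reads that map uniquely.

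Of 23 nucleolar and growth genes 9 were higher and 14 not called (median 0.46), whereas 3 were higher and 1 lower with TMM on *D. melanogaster* counts. Under total *D. virilis* scaling 1 was higher and 1 lower. The number higher was 5 without the block, 4 without DOM-A replicate 1 and 3 or 5 without H2A.V replicate 1 or 2. Against CTRL, 2 were higher in DOM-A and 6 lower in H2A.V. Mitochondrial ribosomal protein genes were lower than CTRL in both knock-downs, in 24 of 71 genes for DOM-A and 40 for H2A.V. Directly compared, 13 (18.3%) were higher and 2 (2.82%) lower, against 21.9% and 7.66% of all genes. The median of 0.20 became -0.05 with TMM on *D. melanogaster* counts, and the number higher was 5 or 8 without DOM-A replicate 1 or 2 and 4 or 5 without H2A.V replicate 1 or 2. *mRpS17* had a log2 fold-change of 1.11, whereas *mRpL44* and *mRpL28* had -0.88 and -0.77. Oxidative phosphorylation genes were lower than CTRL in both knock-downs, 31 of 73 in DOM-A and 24 in H2A.V, and in the direct comparison 2 were higher and 3 lower (median -0.06), or 19 lower with TMM on *D. melanogaster* counts. Without CTRL replicate 2 the number lower was 6, and without DOM-A replicate 2 or H2A.V replicate 3 it was 1. *UQCR-C1*, a core subunit of complex III, was the exception by size, with 2058, 1954 and 1725 normalized counts in DOM-A and 5450.3, 6595 and 4765 in H2A.V libraries and 5813, 5949.9 and 4689 in CTRL (-1.55 ± 0.12, adjusted p = 1.5e-06).

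Glycolytic enzyme genes were lower after DOM-A RNAi. Of 12, 6 fell relative to H2A.V and 6 were not called (median -0.87), and 10 of the 12 were below CTRL in DOM-A against 1 in H2A.V. This list, like all the others, was drawn up with earlier results of these libraries known and is not independent evidence of its direction. *Tpi*, triose phosphate isomerase, had 537, 577 and 294 normalized counts in DOM-A and 2654, 3211 and 1759.9 in H2A.V libraries and 3144, 3741 and 2544 in CTRL (-2.45 ± 0.14, adjusted p = 2.6e-07). *Pgi*, the first isomerase of the pathway, had 1313, 1236 and 1014 normalized counts in DOM-A, 3351, 4134 and 2183 in H2A.V and 3567, 3383 and 2506 in CTRL libraries (-1.40 ± 0.13, adjusted p = 4.8e-06). For both, all DOM-A libraries were below all others and H2A.V overlapped CTRL. *Pglym78* (-1.22), *Eno* (-1.04), *Pgk* (-0.89, lost without the block) and *Gapdh1* (-0.85) were the others called, and *Gapdh1* was below CTRL in H2A.V also (-0.49, adjusted p = 0.0097). Of 6 pentose phosphate genes, *Taldo* (-0.93) and *Rpi* (-0.75) of the non-oxidative branch fell, the second not without the block.

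Of 13 metal handling genes 4 fell, 3 rose and 6 were not called. The ferritin subunit genes *Fer1HCH* and *Fer2LCH*, which are neighbours in the genome, fell in DOM-A. *Fer1HCH* had 5092, 4765 and 4173 normalized counts in DOM-A and 13953, 28467 and 11778 in H2A.V libraries and 16219, 21375 and 8581 in CTRL (-1.78 ± 0.29, adjusted p = 0.00025), and *Fer2LCH* 4029, 5354 and 3914 normalized counts in DOM-A, 11937, 22933 and 10292 in H2A.V and 13081, 24069 and 7790.1 in CTRL libraries (-1.65 ± 0.24, adjusted p = 0.00012; lost without the block). With *MtnA*, described above, they were among the 4 that fell. The 3 that rose encode transporters, among them the zinc transporter *ZnT63C* (1.67) and the divalent metal transporter *Mvl*, with 32788, 16891 and 35029.8 normalized counts in DOM-A and 11410.1, 11895 and 16267 in H2A.V libraries (1.08 ± 0.19, adjusted p = 0.00041).

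Mitotic genes were lower in DOM-A: 15 of 37 fell (40.5%, against 7.66% of all genes) and 2 rose (median -0.54). *Incenp*, a subunit of the chromosomal passenger complex with Aurora B, had 773, 1058 and 695 normalized counts in DOM-A and 2828, 2232 and 2328 in H2A.V libraries and 2394, 2176 and 1793 in CTRL (-1.56 ± 0.19, adjusted p = 3.3e-05), and DOM-A did not overlap the others. The cytokinesis genes *tum* (-1.27) and *Klp3A* (-1.25) and the cyclin gene *CycB3* (-1.22) fell likewise (edgeR, adjusted p = 0.00016, 3.7e-05 and 0.00046). In all 4 genes DOM-A replicate 2 was the highest DOM-A library. Without DOM-A replicate 1 or 3 the number of mitotic genes that fell was 8 or 9, without H2A.V replicate 1 it was 9, and fitting only these 6 libraries gave 7. Of 38 DNA replication genes 5 fell and 1 rose (median -0.16), and 2 fell without the block or without DOM-A replicate 1 or 3, and 1 or 3 without H2A.V replicate 1 or 3. With TMM on *D. melanogaster* counts 27 mitotic and 17 replication genes were lower.

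Of 25 DNA repair genes 4 were higher and 7 lower, but 1 and 10 with either *D. melanogaster* scaling or total *D. virilis* counts. Without DOM-A replicate 1 it was 3 and 4, and without H2A.V replicate 1 it was 2 and 5. The mismatch repair gene *Msh6* had 931, 1442 and 1033 normalized counts in DOM-A, 3071, 2766 and 3207 in H2A.V and 3345, 2969 and 2795 in CTRL libraries (-1.41 ± 0.15, adjusted p = 1.5e-05). *Parp1*, which encodes poly(ADP-ribose) polymerase, went the other way, with 5707, 4415 and 4831 normalized counts in DOM-A and 540.3, 590.2 and 546 in H2A.V libraries and 2095, 2391 and 1918 in CTRL (3.18 ± 0.38, adjusted p = 3.1e-05). The 3 groups of *Parp1* did not overlap: H2A.V was below CTRL (-1.92, adjusted p = 0.0021) and DOM-A above it, the second without passing the threshold (1.25, adjusted p = 0.016).

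Genes that charge transfer RNAs were lower in DOM-A, 10 of 20 aminoacyl-tRNA synthetase genes with 1 higher (median -0.47). *GlyRS* had 1759.8, 1464 and 1492 normalized counts in DOM-A and 3629, 4380.4 and 2936 in H2A.V libraries and 3372, 3167 and 2975 in CTRL libraries (-1.21 ± 0.14, adjusted p = 2.1e-05), and *AspRS* had -1.17 ± 0.20 (adjusted p = 0.00038). *ArgRS*, the one that was higher (0.58), lost its call under both *D. melanogaster* scalings and under total *D. virilis* scaling. Without the block or without H2A.V replicate 2, 6 were lower. Subunits of the vacuolar proton pump were lower in 6 of 17 cases and higher in 1 (median -0.34), with *Vha13* the most reduced at -1.25, and 12 were lower with TMM on *D. melanogaster* counts.

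Lysosomal protein genes were higher in DOM-A than in H2A.V, 9 of 15 with 1 lower (median 0.75). Against CTRL, 1 was higher and 1 lower in DOM-A (median 0.12), and 3 were lower in H2A.V (median -0.45). *LManII*, a lysosomal alpha-mannosidase gene, had 213, 364 and 208 normalized counts in DOM-A and 39.7, 51.8 and 54.5 in H2A.V libraries and 24.4, 38.1 and 26.7 in CTRL (2.41 ± 0.24, adjusted p = 8.3e-06), where CTRL was the lowest group. The cathepsin gene *CtsL1* had 10708, 7493 and 9806 normalized counts in DOM-A, 4412, 3521 and 5144 in H2A.V and 5869, 5855 and 6829.8 in CTRL libraries (1.10 ± 0.19, adjusted p = 0.00039) and the sterol transport gene *Npc2a* rose by 1.12. *GILT1*, a thiol reductase gene, was the member that fell, with 168, 224 and 225 normalized counts in DOM-A and 484, 381 and 608 in H2A.V libraries (-1.25 ± 0.21, adjusted p = 0.00031).

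Of 8 germline markers, genes that somatic cells normally keep silent or low, 5 were lower and 2 higher in DOM-A than in H2A.V (median -1.14). Against CTRL, 2 were higher and 4 lower in DOM-A, and 3 were higher and 2 lower in H2A.V. *piwi*, the nuclear piRNA-binding protein gene, had 65.7, 171 and 58.9 normalized counts in DOM-A and 780.0, 309.9 and 875 in H2A.V libraries and 77.8, 169 and 52.5 in CTRL (-2.93 ± 0.48, adjusted p = 0.00028). *nanos*, the translational repressor gene of germ cells, had 51.3, 63.5 and 48.7 normalized counts in DOM-A, 379.9, 425 and 285 in H2A.V and 67.8, 90.0 and 55.3 in CTRL libraries (-2.72 ± 0.16, adjusted p = 2.6e-07). In both genes DOM-A overlapped CTRL and every H2A.V library was above. The differentiation gene *bam* had 127, 117 and 195 normalized counts in DOM-A and 786, 666 and 793 in H2A.V libraries and 440.0, 449 and 415 in CTRL (-2.37 ± 0.25, adjusted p = 1.1e-05) and was below CTRL in DOM-A. The cytoplasmic piRNA factors *aub* and *AGO3* were higher in DOM-A than in H2A.V. *aub* had 1946, 1978 and 1459.7 normalized counts in DOM-A, 741, 907 and 553 in H2A.V and 2766, 2703 and 2296 in CTRL libraries (1.30 ± 0.12, adjusted p = 6.0e-06), below CTRL in both knock-downs and more so in H2A.V. *AGO3* had 2927, 2482 and 2065 normalized counts in DOM-A, 619, 656 and 617 in H2A.V and 1260.1, 1556 and 1052 in CTRL libraries (1.97 ± 0.22, adjusted p = 2.1e-05), above CTRL in DOM-A and below it in H2A.V.

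Chromatin genes include those of the complexes themselves. Of 20 subunit genes of the DOM-A and DOM-B complexes 9 were higher in DOM-A than in H2A.V and 1 lower (median 0.48), and with total *D. virilis* counts 1 was higher and 1 lower. Without H2A.V replicate 2 the number higher was 5. Against CTRL, 6 of them were lower in H2A.V. *YL-1*, which encodes an H2A.V-binding chaperone subunit, had 756, 648 and 596 normalized counts in DOM-A and 332, 309 and 313 in H2A.V libraries and 521, 520.1 and 550.3 in CTRL libraries (1.06 ± 0.11, adjusted p = 8.0e-06). *MRG15*, a chromodomain subunit gene, had 492, 471 and 443 normalized counts in DOM-A, 285, 253 and 292 in H2A.V and 493, 526 and 488 in CTRL libraries (0.76 ± 0.12, adjusted p = 0.00022), a call lost with total *D. virilis* counts. Of 21 genes for histone variants and histone chaperones 4 were higher, *His2Av* among them, and 4 lower, or 2 higher and 8 lower with TMM on *D. melanogaster* counts. *His3.3A*, a gene of the replacement histone H3.3, had 1224, 1414 and 1312 normalized counts in DOM-A and 2240.4, 2510.5 and 2651 in H2A.V libraries and 2852, 3942 and 2466 in CTRL (-0.91 ± 0.13, adjusted p = 0.00013), and *His4r*, a histone H4 gene outside the histone cluster, had a log2 fold-change of -0.92 ± 0.12 (adjusted p = 4.6e-05). *abo*, a repressor gene of histone transcription, had 1170.0, 839 and 1037 normalized counts in DOM-A and 414, 469 and 397 in H2A.V libraries and 474, 403 and 402 in CTRL (1.25 ± 0.15, adjusted p = 3.5e-05).

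Among genes known from neurons, *Appl*, the homologue of the amyloid precursor protein gene, had 306, 626 and 202 normalized counts in DOM-A and 27.5, 33.8 and 45.1 in H2A.V libraries and 1200.1, 697 and 603 in CTRL libraries (3.32 ± 0.40, adjusted p = 2.9e-05). All H2A.V libraries were far below the others and DOM-A lay between, with DOM-A replicate 2 within the CTRL range. The calcium channel gene *cac* had 208, 242 and 225 normalized counts in DOM-A, 56.7, 49.6 and 74.1 in H2A.V and 462, 499 and 397 in CTRL libraries (1.91 ± 0.22, adjusted p = 2.2e-05), below CTRL in both knock-downs. Of 23 neuronal genes tested 5 were higher and 3 lower in DOM-A (median -0.01), the nicotinic receptor gene *nAChRalpha1* (1.95) among the first. The synaptic genes *nSyb* and *Syt1* did not exceed 16.6 normalized counts in any DOM-A, H2A.V or CTRL library, whereas *brp* was at 429 to 623 normalized counts in DOM-A, 602 to 1163 in H2A.V and 534 to 706 in CTRL libraries and *elav* at 76.9 to 106 in DOM-A, 158 to 277 in H2A.V and 229.9 to 382 in CTRL libraries.

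Heat shock genes were lower in DOM-A than in H2A.V in 6 of 17 cases (median -0.67), and this rested on few libraries. *Hsp68* had 1819, 529 and 1542 normalized counts in DOM-A and 4628, 6402 and 1622 in H2A.V libraries and 2458, 1080.5 and 812 in CTRL libraries (-1.78 ± 0.47, adjusted p = 0.0077), and its call was lost without DOM-A replicate 1 or 2, H2A.V replicate 1 or 2, or CTRL replicate 1 or 2. *Hsp70Ba*, one of several near-identical copies, had 56.1, 18.0 and 40.5 normalized counts in DOM-A, 169, 375 and 53.6 in H2A.V and 101, 39.2 and 23.0 in CTRL libraries (-2.32 ± 0.59, adjusted p = 0.0061), lost without DOM-A replicate 1 or 2, H2A.V replicate 2 or CTRL replicate 2. In both genes DOM-A replicate 2 was the lowest and H2A.V replicate 2 the highest of their groups. Without DOM-A replicate 1 or 2 or H2A.V replicate 2 the list had 1 gene called lower, without CTRL replicate 2 it had 3 and without the block 2. In a fit of only these 6 libraries the calls of *Hsp68* and *Hsp70Ba* were lost. The constitutive *Hsc70-4* had a log2 fold-change of -0.78 ± 0.16 (adjusted p = 0.0016; lost without the block).

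**Figure D4:**
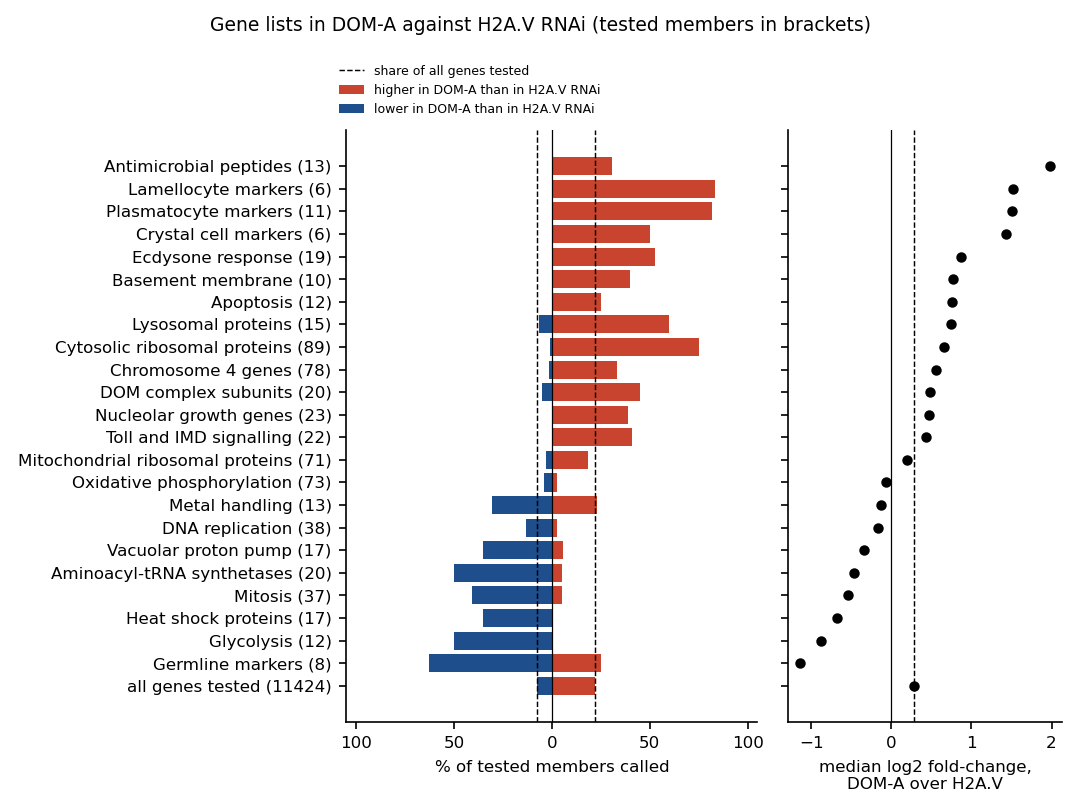
Share of tested genes called higher or lower in DOM-A against H2A.V (left, percent) and median log2 fold-change (right) for gene lists and for all 11424 genes tested. Plasmatocyte and lamellocyte markers and, with the spike-in scaling, cytosolic ribosomal protein genes are mostly higher in DOM-A (34 of 89 ribosomal protein genes with TMM on *D. melanogaster* counts), whereas germline markers, aminoacyl-tRNA synthetases and glycolytic genes are most often lower.

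The contrasts that define the classes do not involve the TIP60 and DOM-B libraries, although these libraries share the error estimate and the block terms of the fit. They show the same genes after loss of the acetyltransferase of the DOM-A complex and of the isoform that incorporates H2A.V. These 6 libraries were fitted on their own. Over all genes, 256 (2.24%) were higher and 399 (3.49%) lower in TIP60 than in DOM-B RNAi, and the median log2 fold-change was -0.12. Of the 562 genes lower after DOM-A RNAi, 147 (26.2%) were lower in TIP60 and the others were not called, the median was -0.66, and 536 were below 0. Of the 797 genes higher after DOM-A RNAi, 128 (16.1%) were higher and 2 lower in TIP60, with a median of 0.53 and 656 above 0. Of the 709 genes lower after H2A.V RNAi, 41 (5.78%) were higher and 3 lower in TIP60 than in DOM-B, with a median of 0.25 and 517 above 0. Of the 56 genes higher after H2A.V RNAi, 21 (37.5%) were lower in TIP60 and the others were not called, with a median of -1.49 and 50 below 0. When the classes were formed from the DOM-A, H2A.V and CTRL libraries alone, an alternative chosen after seeing the data, they held 455, 693, 451 and 41 genes, of which 130, 117, 43 and 20 were called in these directions.

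The number of genes called in the direction of each class depended on single libraries. Without TIP60 replicate 1 it was 10, 18, 0 and 3 in the classes lower and higher after DOM-A RNAi and lower and higher after H2A.V RNAi, and without DOM-B replicate 1 it was 6, 18, 1 and 1. Without TIP60 replicate 2 it was 349, 370, 211 and 33, and without DOM-B replicate 2 it was 348, 375, 215 and 33. Among named genes, *Tpi* had 709, 975 and 389 normalized counts in TIP60 and 2178, 2898 and 1377 in DOM-B libraries (-1.67, adjusted p = 0.0014). *PPO2* had 56.8, 95.6 and 159 normalized counts in TIP60 and 3.13, 4.66 and 18.3 in DOM-B libraries, *Appl* had 509.5, 896 and 409 normalized counts in TIP60 and 156, 120.3 and 137 in DOM-B libraries (2.06, adjusted p = 0.0047) and *piwi* had 107, 117 and 104 normalized counts in TIP60 and 505, 873 and 334 in DOM-B libraries (-2.27, adjusted p = 0.0027).

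**Figure D5:**
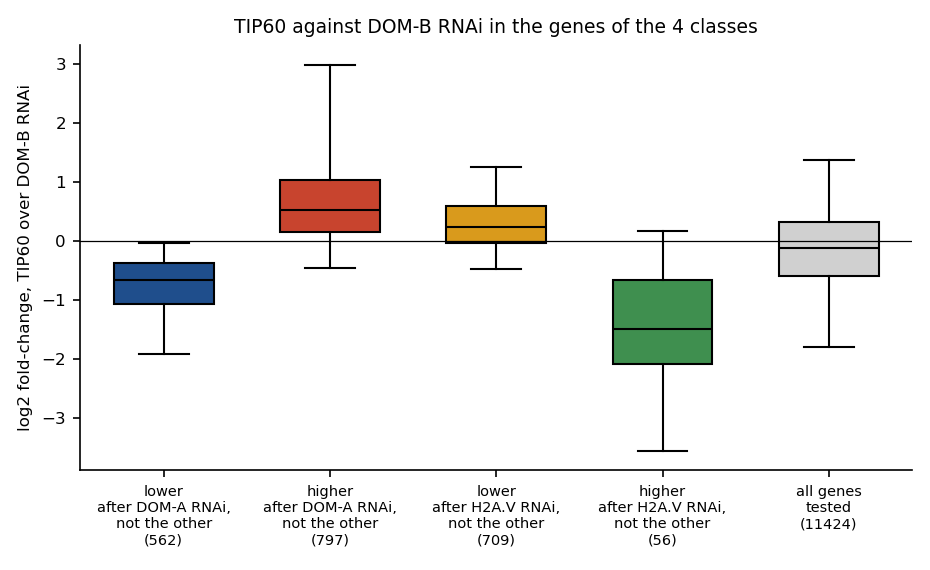
Log2 fold-change of TIP60 over DOM-B RNAi (vertical axis) in the genes of each class and in all 11424 genes tested (boxes give quartiles with the median, whiskers the 5th and 95th percentiles). The medians are -0.66 and 0.53 in the classes lower and higher after DOM-A RNAi and 0.25 and -1.49 in those lower and higher after H2A.V RNAi.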

How the data were processed

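Poly(A) RNA of 15 Kc167 samples with *D. virilis* spike-in cells was sequenced with 50 nt directional reads. The authors deposited counts of reads per gene, made with STAR 2.5.3a against the *D. melanogaster* (dm6) and *D. virilis* genomes, with reads that map to several places discarded. Each genome was mapped independently, so reads of conserved genes can be counted for the other species. The counts do not show how many, in the spike-in size factors either. The column of counts on the strand of the gene was used. Symbols and positions came from the Ensembl BDGP6 annotation (17343 of 17481 identifiers) and 38 further symbols from the study's own gene table.

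Counts were tested with edgeR 4.0.16 (quasi-likelihood, R 4.3.3) over all 15 libraries, with group and replicate number as terms and size factors by median of ratios over 8941 *D. virilis* genes. The filter required 1 read or more in at least 6 of the libraries, p-values were adjusted by Benjamini-Hochberg over 11424 genes, and the threshold was 0.01. The TIP60 against DOM-B comparison used its own 6 libraries. The labels give replicate numbers and the study's model has the same batch term. Deviations from the group means correlated between same-numbered DOM-A and H2A.V libraries with r 0.05 to 0.45 (median 0.18), so not every pair passes 0.1. For different numbers r was -0.44 to 0.29 (median -0.13). Over all groups the 30 same-numbered pairs had r 0.05 to 0.67 (median 0.31), against a median of -0.23 for different numbers. Because deviations within a group cancel out, the values for different numbers tend to fall where those for the same number rise. The block stands because the study's methods use it.

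Replicates were labelled as biological and differed by more than counting noise. Genes were named by rule: the targeted genes, the 10 highest and 10 lowest called genes with a mean of at least 100 normalized counts, the same sign in all replicate pairs and no overlap, up to 8 such genes of each strict class, and members of 40 gene lists. The comparison, the lists and their members were chosen with earlier results of these data known. The scripts were tested on simulated data. Alternatives were other scalings, filters, thresholds, DESeq2 1.42.0, unstranded counts, fits of fewer groups, no replicate block and leaving out each library.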

Additional observations from a re-analysis of the deposited data

Results flagged for a closer look

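Reads outside the gene counts were compared between groups, as a share of the *D. melanogaster* or *D. virilis* reads of each library. Reads on the strand opposite to *D. melanogaster* genes made up 3.19, 3.31 and 3.27% in H2A.V replicates 1, 2 and 3, above every CTRL library (2.99, 3.04 and 3.03%) and every DOM-A library (2.83, 2.65 and 2.98%). *D. melanogaster* reads with no gene on the counted strand made up 3.84, 3.82 and 4.86% in H2A.V. This was above every CTRL library (3.51, 3.22 and 3.78%) and within the range of DOM-A (4.67, 3.39 and 5.47%). Reads opposite to a gene can fall in this share too, so it is not separate from the share before. Reads opposite to *D. virilis* genes made up 0.98, 1.06 and 1.08% in H2A.V, against 0.733, 0.768 and 0.847% in CTRL and 0.731, 0.715 and 0.914% in DOM-A. The *D. virilis* cells received no dsRNA, but reads of *D. melanogaster* genes can be counted on *D. virilis* genes. Shares on the opposite strand, with no gene on the counted strand and ambiguous between genes were scanned in both species, for DOM-A and for H2A.V. These were noted because all 3 H2A.V libraries exceeded all 3 CTRL libraries, and no other share met this condition. The scan looked only for shares above CTRL. For reads opposite to *D. melanogaster* genes, all 3 DOM-A libraries were below all 3 CTRL libraries, replicate 3 narrowly (2.98 against a lowest CTRL share of 2.99%). The exact two-sided permutation p of 0.1, the smallest that 3 against 3 libraries allow, therefore follows from the selection and is not a test.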

How the results depend on the processing

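The number of genes called depended on the scaling, the threshold, the replicate block and single libraries. With TMM on *D. melanogaster* counts 1595 genes were higher and 1594 lower in DOM-A than in H2A.V, 762 were called in H2A.V against CTRL, and the classes lower after DOM-A, lower after H2A.V and higher after H2A.V RNAi held 908, 262 and 112 genes. With *D. melanogaster* median-of-ratios factors 1566 genes were lower, 755 were called in H2A.V against CTRL, and the H2A.V classes held 244 and 143 genes. With total *D. virilis* counts 1253 were higher and 1534 lower, 598 were called in H2A.V against CTRL, the classes lower after DOM-A and lower after H2A.V RNAi held 936 and 190 genes, and the spike-in ratio was 0.0343. The log2 fold-change of *dom* turned to -0.012 with total *D. virilis* counts. Without the replicate block 1422 and 912 genes were called against CTRL in DOM-A and H2A.V, and the classes higher after DOM-A and higher after H2A.V RNAi held 474 and 25 genes.

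With DESeq2 2191 genes were called in H2A.V against CTRL. With a threshold of 0.05 the direct comparison had 1354 lower genes, the comparisons with CTRL 3674 in DOM-A and 2845 in H2A.V, and the classes higher after DOM-A, lower after H2A.V and higher after H2A.V RNAi held 1229, 1237 and 115 genes. With only the DOM-A, H2A.V and CTRL libraries 960 genes were called in H2A.V against CTRL and 451 were lower after H2A.V RNAi alone. With only the DOM-A and H2A.V libraries 1366 genes were higher and 461 lower. Fewer samples in a fit leave fewer degrees of freedom; other causes of these differences were not tested.

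Leaving out 1 library gave 1581 to 2530 genes higher and 601 to 841 lower in the direct comparison, 1219 to 2425 called in DOM-A and 531 to 1777 in H2A.V against CTRL, 356 to 596 and 458 to 763 genes lower and higher after DOM-A RNAi alone, 282 to 899 and 22 to 66 lower and higher after H2A.V RNAi alone, and a spike-in ratio of 0.19 to 0.30. The numbers of these classes called in TIP60 against DOM-B ranged from 6 to 349, 18 to 375, 0 to 215 and 1 to 33 without 1 library. They were 329, 218, 162 and 34 in a fit of all 15 libraries, 214, 255, 158 and 27 with TMM on *D. melanogaster* counts, 171, 106, 40 and 20 without the block, and 72, 30, 20 and 2 in the strict classes.

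Of 151 named genes 150 were called in the direct comparison. Of these, 126 kept that call under every alternative in which they were tested, 109 of them with a test under each. The filter of 10 reads in every library tested 132 of the named genes. Motifs in promoters, listed as a comparison in the plan, were not run because no promoter sequences were used here. The low level of genes such as *PPO1* and *CecA1* limits their fold-changes, which depend on the fitting at counts near 0.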

Other observations

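Further gene groups are given as values. Both hypoxia-inducible growth inhibitor genes tested were higher in DOM-A. *scyl* had 11060.3, 9058 and 10604 normalized counts in DOM-A, 4466, 3773 and 6645 in H2A.V and 4369, 4157 and 4812 in CTRL libraries (1.07 ± 0.15, edgeR, adjusted p = 8.7e-05) and *chrb* had 1043, 619 and 1428 normalized counts in DOM-A, 359.6, 230.1 and 694 in H2A.V and 327, 290.2 and 586 in CTRL libraries (1.33 ± 0.23, adjusted p = 0.0004; lost without the block). For *scyl* every DOM-A library lay above every H2A.V library, and the other 7 of 9 hypoxia genes were not called (median -0.17).

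Of 17 genes of serpins, secreted protease inhibitors, 4 (23.5%) were higher and 6 (35.3%) lower, against 21.9% and 7.66% of all genes. *Spn27A*, an inhibitor of melanization and of the Toll pathway, had 691, 543 and 533 normalized counts in DOM-A, 176, 149 and 179 in H2A.V and 71.1, 89.0 and 87.6 in CTRL libraries (1.80 ± 0.16, edgeR, adjusted p = 4.2e-06), and *Spn31A* had 32.1, 12.3 and 25.8 normalized counts in DOM-A, 126, 62.5 and 140.5 in H2A.V and 101, 69.9 and 161 in CTRL libraries (-2.24 ± 0.31, adjusted p = 7.5e-05). Of 14 Methuselah-like receptor genes 5 (35.7%) were higher and 2 (14.3%) lower. *mthl2* had 909, 234 and 388 normalized counts in DOM-A, 21.1, 15.8 and 45.1 in H2A.V and 4.44, 0 and 4.61 in CTRL libraries and *mthl6* had 68.9, 19.0 and 49.7 normalized counts in DOM-A and 0, 0.719 and 0 in H2A.V libraries, with 0 in all CTRL libraries. Both were present in every DOM-A library. In H2A.V *mthl6* was near silent, whereas *mthl2* was above every CTRL library in each H2A.V library.

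Of 29 Polycomb and trithorax group genes 6 (20.7%) were higher and 5 (17.2%) lower, against 21.9% and 7.66% of all genes. With TMM on *D. melanogaster* counts 2 were higher and 9 lower. The number higher was 2 without DOM-A replicate 1 or 2 and 1 without H2A.V replicate 1 or 2. The SWI/SNF ATPase gene *brm* had 1660.4, 1797 and 1497 normalized counts in DOM-A, 3299, 2991 and 2980.0 in H2A.V and 3933, 3396 and 3112 in CTRL libraries (-0.90 ± 0.15, edgeR, adjusted p = 0.00025) and the methyltransferase subunit gene *ash2* had 385, 381 and 288 normalized counts in DOM-A, 685, 775 and 599 in H2A.V and 812, 750.0 and 699 in CTRL libraries (-0.97 ± 0.11, adjusted p = 2.6e-05). Both were lower in every DOM-A library than in any H2A.V library.

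Among single genes of other lists, *mdy*, which encodes a diacylglycerol acyltransferase, had 665, 434 and 828 normalized counts in DOM-A, 185, 155 and 291 in H2A.V and 140.0, 154 and 270.1 in CTRL libraries (1.62 ± 0.15, edgeR, adjusted p = 3.8e-06). *Atf6*, a sensor of unfolded proteins in the endoplasmic reticulum, had 1686, 1334 and 1408 normalized counts in DOM-A, 653, 551 and 909 in H2A.V and 818, 744 and 784 in CTRL libraries (1.08 ± 0.14, adjusted p = 6.1e-05), and *spir*, an actin nucleator gene, had 5042, 4419.7 and 3956 normalized counts in DOM-A, 547, 174 and 706 in H2A.V and 726, 523 and 742 in CTRL libraries (3.28 ± 0.40, adjusted p = 3.3e-05). In each of the 3 genes the DOM-A libraries did not overlap the H2A.V libraries. Of 78 genes of the chromosome 4 list 26 were higher and 1 lower (median 0.56), or 14 and 1 with total *D. virilis* counts, and the number higher was 17 without H2A.V replicate 1 or without H2A.V replicate 2. Of 853 non-coding RNA genes 80 (9.38%) were higher and 31 (3.63%) lower, below the all-gene shares of 21.9% and 7.66%. With TMM on *D. melanogaster* counts it was 53 and 50, and without H2A.V replicate 1 or 2 the number higher was 39 or 52. Of 31 proteasome subunit genes 1 was higher and 3 lower, or 13 lower with TMM on *D. melanogaster* counts, and 1 was lower without DOM-A replicate 1 or 3. Citrate cycle genes were 3 higher and 4 lower of 16, heterochromatin genes 2 and 3 of 17, sterol and fatty acid synthesis genes 3 and 2 of 16, and unfolded protein response genes 3 and 2 of 16. The shares higher were 18.8, 11.8, 18.8 and 18.8%, all below the all-gene share of 21.9%. With TMM on *D. melanogaster* counts the numbers lower were 7, 6, 5 and 3.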
